A study of Homo sapiens with 65 samples.

Results

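The comparison set SOX17-positive against SOX17-negative cells of a RUNX1 knockout line at day 7 of a mesoderm differentiation. Its members are 7 RNA-seq libraries of the 65 in the series, chosen by their titles: 4 libraries of knockout (KO) cells sorted as SOX17-positive, CD34-positive and CD43-negative, and 3 libraries of KO cells sorted as SOX17-negative, CD34-positive and CD43-negative. The cells derive from H9, a human embryonic stem cell line, with an mCHERRY reporter in 1 allele of SOX17 and a GFP reporter in 1 allele of RUNX1C, an isoform of RUNX1. The KO line carries in addition RUNX1 -/-, a deletion of the part of RUNX1 that encodes the DNA-binding domain, and the labels do not say how many clones were used. WT libraries, 4 of each gate, carry both reporters and no deletion, and serve here as the parental counterpart. All were grown in STAPEL medium with BMP4, activin A, VEGF, SCF and FGF2 for the first days, with SB431542 (an inhibitor of activin and TGF-beta type I receptors) and CHIR99021 (a GSK3 inhibitor that raises Wnt signalling) in the later part of that time, and then with VEGF, SCF, FGF2 and IGF2. The labels do not state whether libraries of a gate came from separate cultures, so p-values measure the spread between libraries of a group, which may be technical. That spread is estimated over 28 sorted libraries fitted together, which include day 12 groups and CD43-positive cells beside the gates compared.

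SOX17 belongs to the SOXF transcription factors, with SOX7 and SOX18, and in the embryo it marks definitive endoderm as well as arterial and blood-forming endothelium. In mouse arteries SOX17 and Notch signalling act in the same programme, in which endothelial cells carry Notch receptors and the ligand DLL4 and express transcription factors of the HEY family. RUNX1 is needed for endothelial cells of the dorsal aorta to give rise to blood cells, and mouse embryos without it form endothelium but not definitive blood.

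The edited gene and the gates were read first. RUNX1 (chr21:34787801-36004667, reverse strand, GRCh38) had 38.04, 36.55, 28.58 and 42.5 CPM (counts scaled to a library total of 1000000) in the KO SOX17-positive libraries 1 to 4 and 36.04, 40.48 and 38.74 CPM in the KO SOX17-negative libraries 1 to 3, against 91.6 to 154 CPM in WT SOX17-positive and 84.3 to 119 CPM in WT SOX17-negative libraries. All 7 KO libraries thus lay below all 8 WT libraries, and between the KO gates RUNX1 did not pass the test (log2 fold change -0.07, standard error 0.26). SOX17 (chr8:54457935-54460888, forward strand) had 177, 178, 187 and 237 CPM in KO SOX17-positive libraries and 58.4, 52.5 and 71.1 CPM in KO SOX17-negative libraries, with a log2 fold change of 1.69 (standard error 0.23). SOX17 was the sorted gene, so this difference is a check of the gate and no finding, and the SOX17-negative gate still held SOX17 transcripts. CD34, used in both gates, was at 1459 to 1699 CPM in SOX17-positive and 1310 to 1576 CPM in SOX17-negative libraries. SPN, which encodes CD43, was at 0.748 to 2.43 CPM in SOX17-positive and 2.57 to 3.84 CPM in SOX17-negative libraries.

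Both gates had the transcripts of endothelium. PECAM1, an adhesion molecule of endothelial junctions, was at 876 to 908 CPM in KO SOX17-positive libraries and 728 to 794 CPM in KO SOX17-negative libraries, and CDH5 (VE-cadherin) was at 1413 to 1693 CPM in SOX17-positive and 1204 to 1367 CPM in SOX17-negative libraries. KDR, a VEGF receptor, was at 6121 to 6789 CPM in SOX17-positive and 6386 to 7636 CPM in SOX17-negative libraries. The leukocyte gene PTPRC and the endoderm genes FOXA2, HNF4A and AFP had no count in any of the 7 libraries.

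Depth was similar, with 13435209 to 17386328 counts in KO SOX17-positive and 15122715 to 17139001 counts in KO SOX17-negative libraries (exact permutation test, two-sided, p = 0.971, where 4 against 3 libraries cannot give less than 0.0571). Mitochondrial genes took 5.43 ± 0.419% (SD, n = 4) of counts in SOX17-positive and 5.38 ± 0.223% (SD, n = 3) in SOX17-negative libraries, with an exact permutation p of 0.914. The numbers in the titles place the libraries in 4 consecutive runs. KO SOX17-positive libraries 1, 2 and 4 share a run with KO SOX17-negative libraries 1, 2 and 3, and KO SOX17-positive library 3 has no KO partner in its run. That library stood apart in FOSB, an immediate early gene, and CDKN1A, a cell cycle inhibitor: FOSB was at 75.2 CPM in it and at 20.9 to 24.1 CPM in the other 3 SOX17-positive libraries, and CDKN1A at 17.1 CPM in it and at 49.6 to 54.4 CPM in the other 3. The WT libraries of the same run also had high FOSB, 95.5 CPM in SOX17-positive and 85.7 CPM in SOX17-negative cells, against 6.78 to 17.6 CPM in the other WT libraries. For genes of the lists below, the result with the run as a block is given where the block changes a call. Each list gene called only with the block lost that call when at least 1 of the 7 KO libraries was also left out.

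Of 22978 genes tested, 154 differed between KO SOX17-positive and SOX17-negative cells at an adjusted p under 0.05 by edgeR's quasi-likelihood test (0.670%), 80 higher (0.348%) and 74 lower (0.322%) in SOX17-positive cells. They are here called higher or lower. Absolute log2 fold changes ran from 0.56 to 4.79 with a median of 1.39, and 136 of the 154 genes are protein coding. In 153 of the 154, the SOX17-positive and SOX17-negative libraries did not overlap, and among all genes tested 1343 (5.84%) had every SOX17-positive library above and 1579 (6.87%) every SOX17-positive library below the SOX17-negative ones. With the library run as a block, 376 genes passed (1.64%), 185 higher (0.805%) and 191 lower (0.831%), and these held all 154. Without SOX17-positive library 1, 2, 3 or 4 the count was 89, 160, 61 and 94, and without SOX17-negative library 1, 2 or 3 it was 89, 46 and 74. In each of these 7 fits 38 of the 154 genes remained called, 25 higher and 13 lower, and no called gene changed sign in any.

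**Figure D1:**
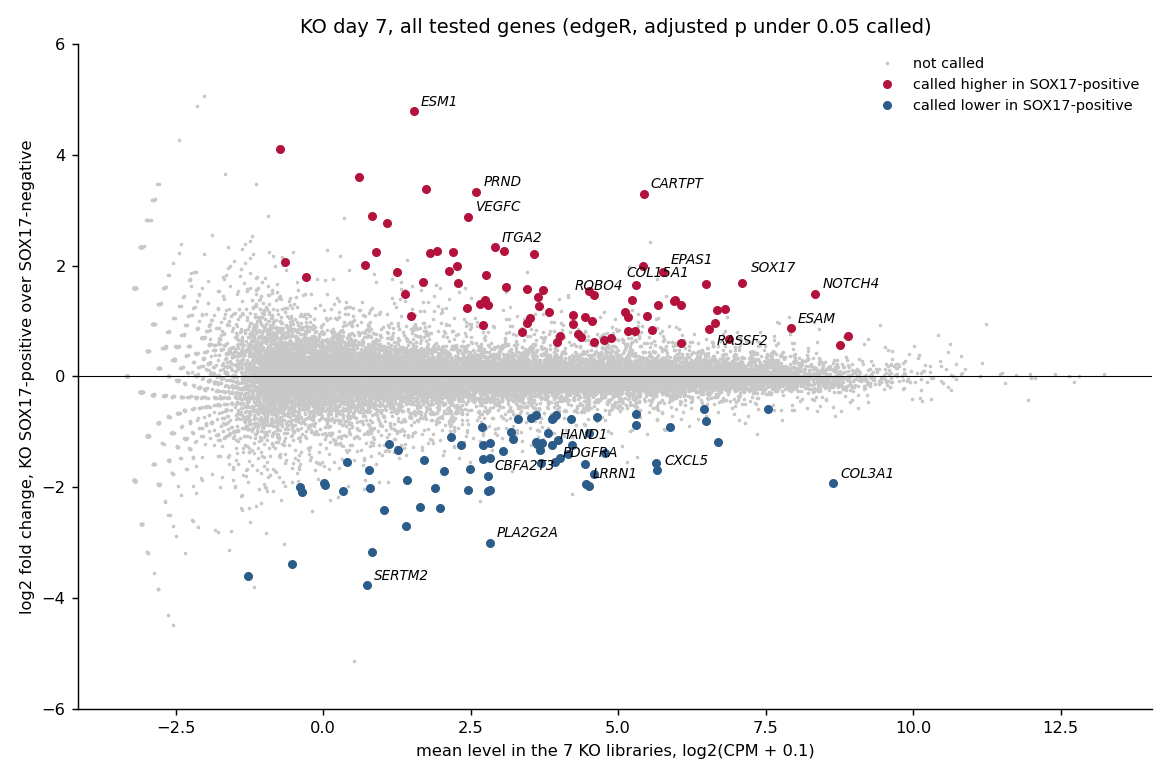
Each point is 1 of 22978 genes, with its mean level in the 7 KO libraries (log2 of CPM plus 0.1) on the x axis and its log2 fold change, KO SOX17-positive over KO SOX17-negative, on the y axis. The 80 genes called higher (red) and the 74 called lower (blue) reach from ESM1 at 4.79 to below -3, over a wide range of levels.

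PRND led the genes called higher by p. PRND (chr20:4721910-4728460, forward strand) encodes doppel, a GPI-anchored relative of the prion protein that in mouse is made by endothelium of the developing brain and by the testis. It had 10.8, 10.3, 7.74 and 9.66 CPM in the KO SOX17-positive libraries, against 0.727, 1.09 and 1.05 CPM in the KO SOX17-negative libraries. The lowest SOX17-positive library was thus well above the highest SOX17-negative one, and the log2 fold change was 3.33 (standard error 0.28, edgeR adjusted p = 3.19e-07). Its relative PRNP, the prion protein, had 90.7 to 114 CPM in SOX17-positive against 81.3 to 104 CPM in SOX17-negative libraries, with a log2 fold change of 0.14 that did not pass (adjusted p = 0.963). CARTPT (chr5:71719163-71721048, forward strand), the precursor of the CART neuropeptides, had 78.9, 38.6, 58.8 and 104 CPM in SOX17-positive libraries and 8.40, 7.62 and 5.49 CPM in SOX17-negative libraries. The SOX17-positive libraries varied among themselves more for CARTPT than for PRND, and none reached down to the SOX17-negative range. Its log2 fold change was 3.30 (standard error 0.59, edgeR adjusted p = 0.0045). Both PRND and CARTPT remained called without any single library.

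**Figure D2:**
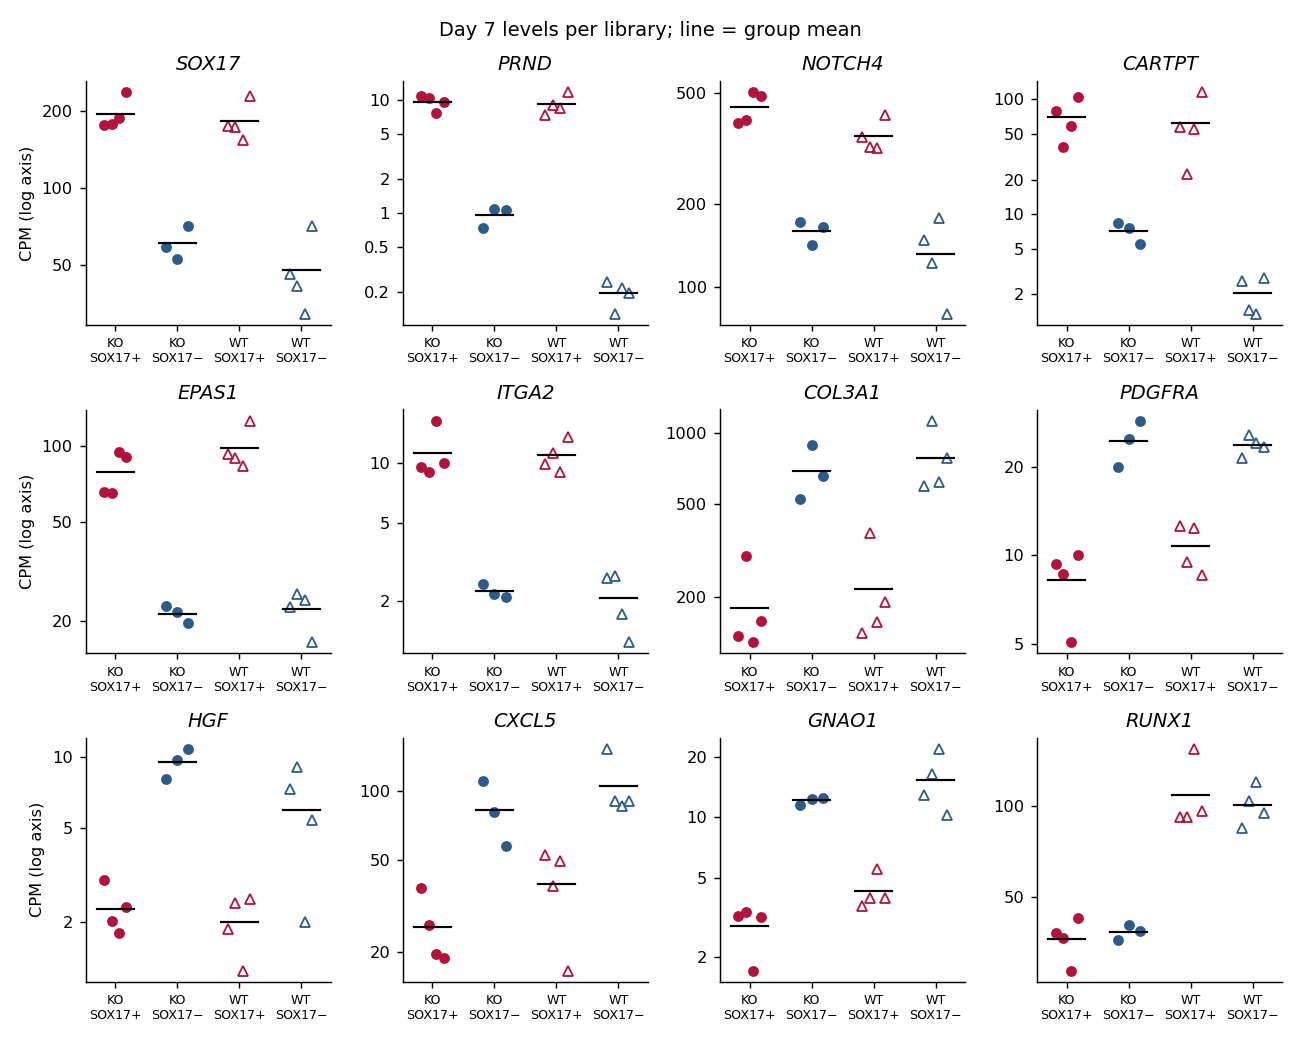
Levels in CPM (log axes) of 12 genes in each day 7 library, by genotype and gate; the black line is the group mean. Filled circles are KO and open triangles WT, with red for SOX17-positive and blue for SOX17-negative. In all panels but RUNX1 the KO gates are apart, while RUNX1 differs between genotypes and not between gates.

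NPY5R and ADCYAP1R1 also had large differences and were chosen here after their values were seen. NPY5R, a receptor of neuropeptide Y, had 1.63, 2.08, 2.31 and 3.34 CPM in KO SOX17-positive and 0.198, 0.192 and 0.175 CPM in KO SOX17-negative libraries (log2 fold change 3.59, standard error 0.47, edgeR adjusted p = 0.000124). ADCYAP1R1, the receptor of the peptide PACAP, had 4.64, 5.87, 3.27 and 7.30 CPM in SOX17-positive against 0.595, 0.512 and 0.408 CPM in SOX17-negative libraries (log2 fold change 3.38, standard error 0.59, adjusted p = 0.00415). Both genes were at low levels, with no overlap between gates, and both remained called without any single library.

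The promoters of 4 genes called higher are shown because SOX17 is the sorted factor and Notch signalling works through RBPJ, so the letters of their motifs can be looked for directly. Each window runs from 250 bases before to 50 bases after the gene's start, 5′ to 3′ on the gene's strand, from RefSeq on GRCh38.p14 (the RefSeq start of ESM1 lies inside the longer span that GENCODE gives this gene); capitals mark a SOX core (AACAAT) or an RBPJ site (GTGGGAA), searched on both strands.
PRND, chr20:4721659-4721958, forward strand: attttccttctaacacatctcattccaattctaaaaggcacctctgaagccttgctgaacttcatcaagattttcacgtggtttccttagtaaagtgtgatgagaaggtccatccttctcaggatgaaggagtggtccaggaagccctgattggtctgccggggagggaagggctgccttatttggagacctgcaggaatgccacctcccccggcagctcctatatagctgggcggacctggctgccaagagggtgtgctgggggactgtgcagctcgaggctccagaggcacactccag
NOTCH4, chr6:32224018-32224317, reverse strand: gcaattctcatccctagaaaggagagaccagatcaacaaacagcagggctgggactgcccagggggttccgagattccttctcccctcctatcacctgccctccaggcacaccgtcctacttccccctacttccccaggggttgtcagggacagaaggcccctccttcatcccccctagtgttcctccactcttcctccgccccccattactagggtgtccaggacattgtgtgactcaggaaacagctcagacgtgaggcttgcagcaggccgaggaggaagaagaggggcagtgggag
ESM1, chr5:54985544-54985843, reverse strand: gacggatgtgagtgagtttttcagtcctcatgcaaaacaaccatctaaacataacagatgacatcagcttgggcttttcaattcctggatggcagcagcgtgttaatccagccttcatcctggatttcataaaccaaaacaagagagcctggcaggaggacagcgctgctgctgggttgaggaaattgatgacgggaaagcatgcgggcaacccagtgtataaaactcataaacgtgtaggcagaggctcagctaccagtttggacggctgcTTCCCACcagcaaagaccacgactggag
SLC1A4, chr2:64988229-64988528, forward strand: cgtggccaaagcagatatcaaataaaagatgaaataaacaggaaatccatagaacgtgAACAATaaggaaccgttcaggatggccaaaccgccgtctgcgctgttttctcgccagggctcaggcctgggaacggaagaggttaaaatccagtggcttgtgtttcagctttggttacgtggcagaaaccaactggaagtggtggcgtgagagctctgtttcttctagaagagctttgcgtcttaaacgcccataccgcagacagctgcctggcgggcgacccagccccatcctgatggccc

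The PRND and NOTCH4 windows held neither motif, the ESM1 window held 1 RBPJ site in its transcribed part, on the opposite strand, and the SLC1A4 window held 1 SOX core at position -192 from the start. Of the 80 genes called higher 54 had a window in the table; 4 of these held a SOX core (7.41%), 2 an RBPJ site (3.70%) and 4 a RUNX site, TGTGGT (7.41%). Of the 74 called lower 56 had a window, with a SOX core in 6 (10.7%), an RBPJ site in 4 (7.14%) and a RUNX site in 4 (7.14%). Over all 27305 windows of the table the shares were 10.35%, 6.28% and 13.1%. The 4 printed genes were picked by hand, so the matches in ESM1 and SLC1A4 do not describe the genes called higher. A match describes letters in these windows and no binding.

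Among the SOXF factors SOX18 followed SOX17 and SOX7 did not. SOX18, which has a role in arterial and lymphatic endothelium, had 52.8, 54.4, 55.2 and 68.9 CPM in KO SOX17-positive and 29.36, 28.76 and 24.04 CPM in KO SOX17-negative libraries (log2 fold change 1.09, standard error 0.26, edgeR adjusted p = 0.0466). The gates did not overlap, but the call was near the threshold and was lost without any 1 of the 7 libraries (adjusted p 0.0643 to 0.242); with the run as a block it was 0.00409. SOX7 had 289 to 340 CPM in SOX17-positive and 342 to 403 CPM in SOX17-negative libraries, a log2 fold change of -0.25 that did not pass (adjusted p = 0.786).

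Of the Notch receptors NOTCH4 was called and the other 3 were not. NOTCH4 (chr6:32194843-32224067, reverse strand), the receptor found mainly on endothelium, had 392, 402, 505 and 488 CPM in KO SOX17-positive libraries and 172, 142 and 165 CPM in KO SOX17-negative libraries. Every SOX17-positive library was above every SOX17-negative one, and the log2 fold change was 1.495 (standard error 0.22, edgeR adjusted p = 0.000387). Within the 3 shared runs its log2 ratio was 1.195 to 1.561. NOTCH1, the main receptor in arterial specification, had 549 to 625 CPM in SOX17-positive against 427 to 532 CPM in SOX17-negative libraries (log2 fold change 0.30, adjusted p = 0.789), and NOTCH2 and NOTCH3 had log2 fold changes of -0.37 and 0.19. NOTCH4 was among the genes that stayed called without any single library.

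No Notch ligand, modulator or target passed the test, where 0.670% of all genes did. Of the 6 ligands tested the arterial ligand DLL4 had 249.3, 221.9, 228.0 and 352.2 CPM in KO SOX17-positive and 157, 119 and 128 CPM in KO SOX17-negative libraries, with a log2 fold change of 0.97 (standard error 0.30, edgeR adjusted p = 0.162). JAG2 had 151 to 172 CPM in SOX17-positive against 89.6 to 117 CPM in SOX17-negative libraries (log2 fold change 0.65, adjusted p = 0.0662), and JAG1 193 to 290 CPM in SOX17-positive against 234 to 431 CPM in SOX17-negative libraries (log2 fold change -0.41). Neither DLL4 nor JAG2 overlapped between gates. With the run as a block DLL4 passed at 0.0376 and JAG2 at 0.0123. With that block DLL4 was lost without any library but SOX17-positive library 1, and JAG2 was lost without SOX17-positive library 3 or SOX17-negative library 2 or 3. Of the 6 targets tested HEY2, an arterial transcriptional repressor, had the largest value, 53.2 to 95.2 CPM in SOX17-positive against 23.6 to 34.9 CPM in SOX17-negative libraries (log2 fold change 1.45, adjusted p = 0.213; 0.0154 with the run as a block). NRARP, a feedback inhibitor of Notch, had a log2 fold change of 0.85, with an adjusted p of 0.0212 under the block, and HEY1 0.55. Under the block HEY2 was lost without SOX17-positive library 3 or SOX17-negative library 1 or 3, and NRARP without SOX17-positive library 2 or 4 or any SOX17-negative library. The median log2 fold change was -0.11 for the ligands, 0.07 for 10 modulators and 0.68 for the targets, against -0.0039 for all genes.

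None of the 16 arterial genes tested was called, where 0.670% of all genes were. Of the 16, 9 had every KO SOX17-positive library above every KO SOX17-negative library, as did 5.84% of all genes. The median log2 fold change of the list was 0.63. CXCR4, the chemokine receptor of arterial tip cells, had 55.3, 64.7, 55.1 and 111 CPM in SOX17-positive and 10.1, 13.5 and 16.6 CPM in SOX17-negative libraries. The gates were far apart and SOX17-positive library 4 was well above the others; the log2 fold change of 2.42 (standard error 0.59) had an edgeR adjusted p of 0.0539. GJA5, the gap junction protein connexin 40 of arteries, had 185, 172, 124 and 298 CPM in SOX17-positive against 57.5, 58.2 and 61.9 CPM in SOX17-negative libraries (log2 fold change 1.73, adjusted p = 0.256). TMEM100, a target of BMP9 and ALK1 signalling in arterial endothelium, had a log2 fold change of 1.89 (adjusted p = 0.368). With the run as a block 6 of the 16 passed, all higher, where 1.64% of all genes passed. Their edgeR adjusted p was 0.00432 for CXCR4, 0.00656 for GJA5, 0.0366 for GJA4 (connexin 37), 0.0489 for UNC5B, 0.0238 for NRP1 and 0.0211 for SEMA3G. UNC5B and NRP1 are guidance receptors and SEMA3G a semaphorin of arterial endothelium. When 1 library was also left out, the number that passed with the block was 5, 2, 3 and 4 without SOX17-positive library 1, 2, 3 or 4, and 0, 4 and 1 without SOX17-negative library 1, 2 or 3. EFNB2, the ephrin of arteries, had 588 to 832 CPM in SOX17-positive against 428 to 463 CPM in SOX17-negative libraries, a log2 fold change of 0.58 that passed in neither fit. Summed over the list, the level was 3172, 2885, 3029 and 3831 CPM in SOX17-positive libraries and 2108, 1900 and 1906 CPM in SOX17-negative libraries. In WT cells 5 of the 16 passed, all higher, where 0.927% of all genes were called higher. When the 7 KO libraries were fitted alone, 9 of the 15 arterial genes then tested passed, all higher, among 612 called of 20184 genes. With the run as a block in the same 7 libraries 11 of the 15 passed, all higher, among 1801 called of the same 20184 genes.

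None of 11 venous and lymphatic genes was called. NR2F2 (COUP-TFII), the transcription factor of venous identity, had 86.7, 108, 110 and 117 CPM in KO SOX17-positive and 167, 190 and 217 CPM in KO SOX17-negative libraries (log2 fold change -0.85, standard error 0.29, edgeR adjusted p = 0.241). EPHB4, the venous receptor of EFNB2, had 365 to 489 CPM in SOX17-positive against 526 to 623 CPM in SOX17-negative libraries (log2 fold change -0.47, adjusted p = 0.115). Neither overlapped between gates, and with the run as a block they passed at 0.0294 and 0.0201. FLT4, the VEGF-C receptor, which sits in the same list for its lymphatic role, had 487 to 589 CPM in SOX17-positive against 283 to 373 CPM in SOX17-negative libraries (log2 fold change 0.71, adjusted p = 0.0548, and 0.0337 with the block). With the block NR2F2 passed when SOX17-positive library 4 was left out and FLT4 when SOX17-positive library 1 was, and each was lost without any other library. EPHB4 was lost without SOX17-positive library 3 or any SOX17-negative library. The median of the list was -0.20.

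Of 16 pan-endothelial genes 2 were called higher and none lower, where 0.348% and 0.322% of all genes were. Of the 16, 9 had every SOX17-positive library above every SOX17-negative one, as did 5.84% of all genes. ROBO4, a guidance receptor that stabilises vessels, had 46.2, 49.1, 93.7 and 33.01 CPM in KO SOX17-positive and 20.4, 20.2 and 12.4 CPM in KO SOX17-negative libraries (log2 fold change 1.66, standard error 0.35, edgeR adjusted p = 0.0179). SOX17-positive library 3 was the highest; without it the log2 fold change was 1.28 and the call was lost (adjusted p = 0.108), as it was without SOX17-negative library 1, 2 or 3. AP003501.1 overlaps ROBO4 on the other strand and was called in the same direction; reads of the pair cannot be told apart, since strand is not given for the counts. ESAM, an adhesion molecule of tight junctions, had 263 to 359 CPM in SOX17-positive against 130 to 191 CPM in SOX17-negative libraries (log2 fold change 0.87, standard error 0.17, adjusted p = 0.0113), and lost its call without SOX17-positive library 3 (0.0640) or SOX17-negative library 3 (0.135). The median of the list was 0.25.

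Of 10 sprouting endothelial genes tested, ESM1 and VEGFC were called higher, where 0.348% of all genes were. Neither passed with limma on log2 of RPKM plus 1 (adjusted p = 0.201 for ESM1 and 0.0525 for VEGFC), where the added 1 makes fold changes smaller at low levels. ESM1 (chr5:54977864-55022671, reverse strand), a proteoglycan secreted by tip cells, had 4.64, 3.62, 4.84 and 6.04 CPM in KO SOX17-positive and 0.132, 0 and 0.350 CPM in KO SOX17-negative libraries, from 305 counts against 8. Its log2 fold change of 4.79 (standard error 0.96, edgeR adjusted p = 0.014) was the largest among the called genes and rests on few counts in the SOX17-negative gate; the call was lost without any 1 of the 3 SOX17-negative libraries (adjusted p up to 0.128). VEGFC, the ligand of FLT4, had 5.64, 6.17, 11.3 and 11.2 CPM in SOX17-positive against 0.727, 1.28 and 1.46 CPM in SOX17-negative libraries (log2 fold change 2.88, standard error 0.63, adjusted p = 0.0241). Its call was lost without SOX17-positive library 3 or 4 or any SOX17-negative library (adjusted p up to 0.145). PDGFB, which recruits pericytes, and ADM, adrenomedullin, had log2 fold changes of 1.12 and 1.53 and passed with the run as a block only (adjusted p = 0.0141 and 0.0123), as did PGF in the other direction (-1.27, 0.0350). With the block PDGFB was lost without SOX17-positive library 3 or any SOX17-negative library, ADM without SOX17-negative library 2 or 3, and PGF without any library but SOX17-positive library 1. The median of the list was 0.37.

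**Figure D3:**
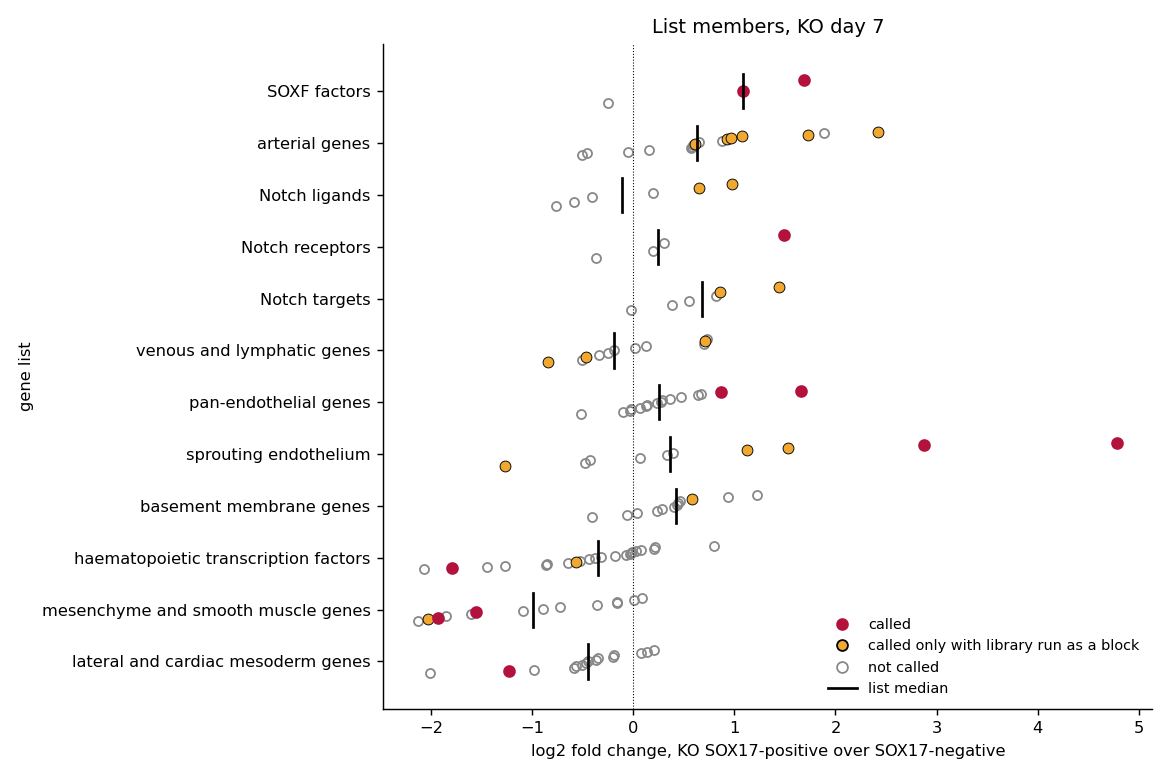
Each circle is a tested gene of 12 lists, placed by its log2 fold change, KO SOX17-positive over KO SOX17-negative; the vertical bar is the list's median. Red circles passed the test, orange ones passed with the library run as a block only, and open ones in neither. Arterial genes lie mostly above 0 without a red circle, and mesenchyme genes mostly below.

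Outside the lists the genes of largest change at a level of at least 8 CPM were of several kinds. ITGA2 (chr5:52989326-53094779, forward strand), the integrin subunit that binds collagen, had 9.59, 9.02, 16.4 and 10.0 CPM in KO SOX17-positive and 2.45, 2.18 and 2.10 CPM in KO SOX17-negative libraries (log2 fold change 2.33, standard error 0.28, edgeR adjusted p = 6.5e-05). EPAS1 (chr2:46293667-46386703, forward strand), the hypoxia-inducible factor HIF-2 alpha, had 65.5, 64.8, 94.9 and 90.3 CPM in SOX17-positive against 22.9, 21.7 and 19.6 CPM in SOX17-negative libraries (log2 fold change 1.89, standard error 0.32, adjusted p = 0.00221). Of 8 hypoxia and glycolysis genes tested none was called and the median was -0.11. CYP26B1, which breaks down retinoic acid, had 16.3, 4.92, 20.4 and 8.51 CPM in SOX17-positive against 4.497, 1.537 and 1.867 CPM in SOX17-negative libraries, with a log2 fold change of 2.26 (adjusted p = 0.0204). SOX17-positive library 2 was close to the highest SOX17-negative library, and the log2 ratio within the 3 shared runs was 1.68 to 2.19. It lost its call without SOX17-positive library 1 or 3 or SOX17-negative library 2 or 3 (adjusted p up to 0.201). COL15A1, a collagen of vascular basement membranes, had 94.4, 124, 200 and 86.5 CPM in SOX17-positive against 42.06, 38.56 and 40.03 CPM in SOX17-negative libraries (log2 fold change 1.66, adjusted p = 0.00665, and 0.0670 without SOX17-negative library 2).

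RP1, a photoreceptor microtubule protein whose gene lies 48.53 kb from SOX17 on the same strand, had 12.7 to 26.9 CPM in KO SOX17-positive and 2.31 to 4.96 CPM in KO SOX17-negative libraries (log2 fold change 2.21, standard error 0.30). ACSM3, a mitochondrial medium-chain acyl-CoA synthetase, had 54.1 to 75.2 CPM in SOX17-positive against 15.1 to 16.7 CPM in SOX17-negative libraries (log2 fold change 1.98, standard error 0.28), and overlaps the called genes ACSM1 and AC004381.2, so that its reads may be shared with theirs. TSPAN2, a tetraspanin, and MYO1E, a class I myosin, had log2 fold changes of 1.82 and 1.39. RP1, ACSM3, TSPAN2, MYO1E, ITGA2 and EPAS1 all stayed called without any single library. Of the other genes named by the rule, TMEM235 (1.61), SYNJ2 (1.58), AC090673.1 (1.56), SLC1A4 (1.54), PLD1 (1.46) and RAPGEF4 (1.44) each lost their call without at least 3 of the 7 libraries, and SYNJ2 and SLC1A4 also with limma. SYNJ2 encodes a phosphoinositide phosphatase, SLC1A4 a neutral amino acid transporter, PLD1 a phospholipase D and RAPGEF4 an exchange factor for RAP1 that is activated by cyclic AMP. RASSF2, a RAS-association protein chosen after its values were seen, was among the genes of smallest p with a modest change, 126, 105, 112 and 118 CPM in SOX17-positive against 73.73, 56.05 and 62.72 CPM in SOX17-negative libraries (log2 fold change 0.85, standard error 0.11, edgeR adjusted p = 7.43e-05).

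Of 14 mesenchyme and smooth muscle genes COL3A1 and PDGFRA were called lower and none higher, where 0.322% and 0.348% of all genes were. Of the 14, 9 had every KO SOX17-positive library below every KO SOX17-negative library, as did 6.87% of all genes. The median log2 fold change of the list was -0.99. COL3A1 (chr2:188974320-189012746, forward strand), a fibrillar collagen, had 137, 298, 128 and 158 CPM in SOX17-positive and 525, 892 and 654 CPM in SOX17-negative libraries (log2 fold change -1.93, standard error 0.43, edgeR adjusted p = 0.0255). In both gates library 2 was the highest. PDGFRA, the PDGF receptor of mesenchyme and early mesoderm, had 9.34, 8.60, 5.06 and 10.0 CPM in SOX17-positive against 19.9, 24.9 and 28.6 CPM in SOX17-negative libraries (log2 fold change -1.55, standard error 0.34, adjusted p = 0.0241). Without SOX17-positive library 1 or 3 or SOX17-negative library 2 or 3 neither was called, and COL3A1 was also lost without SOX17-positive library 4 (adjusted p up to 0.193 for COL3A1 and 0.132 for PDGFRA). COL1A1 had a log2 fold change of -2.13 (adjusted p = 0.112), and LUM, a collagen-binding proteoglycan, -2.03 (0.0788, and 0.0400 with the run as a block).

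Summed over the mesenchyme list, the level was 509, 743, 411 and 594 CPM in KO SOX17-positive libraries and 1128, 1587 and 1315 CPM in KO SOX17-negative libraries, with no overlap; every gene of the list had counts in all 7 libraries. In these bulk samples fewer cells of a type and less RNA per cell cannot be told apart. Of the smooth muscle genes of the list, ACTA2, TAGLN, MYH11 and CNN1 had log2 fold changes of -0.16, 0.00, 0.09 and -0.36, and none was called. The part of these mesenchyme markers in the other results was not tested.

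Of 15 lateral and cardiac mesoderm genes tested HAND1 alone was called, as lower, where 0.322% of all genes were. HAND1, a transcription factor of lateral mesoderm and heart, had 10.5, 12.2, 5.81 and 8.22 CPM in KO SOX17-positive and 22.4, 24.5 and 18.6 CPM in KO SOX17-negative libraries (log2 fold change -1.23, standard error 0.27, edgeR adjusted p = 0.0241). It lost its call without SOX17-positive library 1, 3 or 4 or SOX17-negative library 1 or 2 (adjusted p up to 0.184). Its relative HAND2 had 4.99 to 7.94 CPM in SOX17-positive against 11.4 to 16.2 CPM in SOX17-negative libraries (log2 fold change -0.99, adjusted p = 0.322). The median of the list was -0.45, and 6 of its 15 genes had every SOX17-positive library below, as did 6.87% of all genes.

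Of 22 haematopoietic transcription factors tested CBFA2T3 was called lower and none higher, where 0.322% and 0.348% of all genes were. CBFA2T3 (ETO2), a corepressor of the TAL1 complex in blood progenitors, had 2.38, 4.45, 3.42 and 2.93 CPM in KO SOX17-positive and 8.46, 13.9 and 12.1 CPM in KO SOX17-negative libraries (log2 fold change -1.79, standard error 0.30, edgeR adjusted p = 0.00218). Its ranges were well apart and it stayed called without any single library. AC092384.2 overlaps it on the other strand and was called in the same direction, and reads of the pair cannot be told apart. GATA2 had 32.5 to 48.5 CPM in SOX17-positive against 56.4 to 61.8 CPM in SOX17-negative libraries (log2 fold change -0.57, adjusted p = 0.0928, and 0.0238 with the run as a block). NFE2, a factor of megakaryocytes and erythroid cells, had 0.0744 to 0.230 CPM in SOX17-positive against 0.463 to 1.28 CPM in SOX17-negative libraries (log2 fold change -2.07, adjusted p = 0.38). The median was -0.35, and 17 of the 22 values were below 0. None of 18 haematopoietic surface and signalling genes was called (median -0.22). SPN, the gene of the CD43 gate, passed as lower with the run as a block (log2 fold change -1.03, adjusted p = 0.0216, against 0.119 without it). The summed level of this surface list overlapped between gates, 402 to 461 CPM in SOX17-positive and 437 to 461 CPM in SOX17-negative libraries.

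The genes called lower outside the lists included secreted factors. PLA2G2A (chr1:19975431-19980416, reverse strand), a secreted phospholipase A2, had 2.38, 2.55, 0.893 and 1.03 CPM in KO SOX17-positive and 13.1, 18.7 and 10.2 CPM in KO SOX17-negative libraries (log2 fold change -3.004, standard error 0.50, edgeR adjusted p = 0.00221). HGF (chr7:81699008-81770438, reverse strand), hepatocyte growth factor, had 3.01, 2.02, 1.79 and 2.30 CPM in SOX17-positive against 8.07, 9.74 and 10.8 CPM in SOX17-negative libraries (log2 fold change -2.05, standard error 0.34, adjusted p = 0.00221). The chemokine CXCL5 had 37.98, 26.17, 19.58 and 18.81 CPM in SOX17-positive against 111, 81.03 and 58.05 CPM in SOX17-negative libraries (log2 fold change -1.69, standard error 0.30, adjusted p = 0.00417). Library 1 was the highest in both gates, and the log2 ratio within the shared runs was -1.63 to -1.55. CXCL3, 37.81 kb from CXCL5 on the same strand, had 3.13 to 5.70 CPM in SOX17-positive against 7.818 to 15.01 CPM in SOX17-negative libraries (log2 fold change -1.48, adjusted p = 0.00835, and 0.0932 without SOX17-negative library 1). IGF1 had 3.26 to 4.24 CPM in SOX17-positive against 7.54 to 13.7 CPM in SOX17-negative libraries (log2 fold change -1.49, adjusted p = 0.0370), and lost its call without 6 of the 7 libraries, SOX17-negative library 1 being the exception, and with limma.

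GNAO1, a G protein alpha subunit, had 3.196, 3.382, 1.712 and 3.163 CPM in KO SOX17-positive and 11.6, 12.4 and 12.5 CPM in KO SOX17-negative libraries (log2 fold change -2.07, standard error 0.29, edgeR adjusted p = 0.000348). MAP3K5 (ASK1), a stress-activated kinase, had 3.26, 3.50, 2.23 and 2.30 CPM in SOX17-positive against 9.39, 10.2 and 7.53 CPM in SOX17-negative libraries (log2 fold change -1.67, standard error 0.23, adjusted p = 0.000248). SLC32A1, the vesicular GABA transporter, and LRRN1, a leucine-rich repeat membrane protein, had log2 fold changes of -1.75 and -1.94. GNAO1, MAP3K5, SLC32A1, LRRN1, PLA2G2A, HGF and CXCL5 all stayed called without any single library. TNFRSF19 (-1.97), a receptor of the TNF family, was lost without SOX17-negative library 2 (adjusted p = 0.113). ADRA2A (-1.58), NXF3 (-1.57), CCDC80 (-1.56) and PCDH7 (-1.48) each lost their call without at least 4 of the 7 libraries. ADRA2A encodes an alpha-2 adrenergic receptor, and PCDH7 a protocadherin. MIR3606 (-2.04) lies within COL3A1 on the same strand, and its counts cannot be told apart from those of COL3A1. SERTM2, chosen after its values were seen, had the lowest fold change among the genes called lower that stayed called without any single library (-3.77).

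Other lists had few calls or none, where 0.670% of all genes were called. Of 15 axon guidance genes EPHB2, a receptor of B-class ephrins, was called lower, with 6.83, 11.9, 6.25 and 6.04 CPM in KO SOX17-positive and 15.7, 21.4 and 17.3 CPM in KO SOX17-negative libraries (log2 fold change -1.21, edgeR adjusted p = 0.0331, lost without 6 of the 7 libraries, SOX17-positive library 2 being the exception). Of 10 interferon-stimulated genes IFITM1 was called lower, with 4.54 to 10.9 CPM in SOX17-positive against 14.6 to 24.1 CPM in SOX17-negative libraries (log2 fold change -1.34, adjusted p = 0.0432, with the same exception). OAS1 of this list passed as lower with the run as a block only (log2 fold change -0.98, adjusted p = 0.0191), and its gates overlapped, with 2.36 to 5.06 CPM in SOX17-positive and 4.55 to 7.94 CPM in SOX17-negative libraries. None of 12 basement membrane genes was called. Their median was 0.42 and 7 had every SOX17-positive library above, as did 5.84% of all genes. Among them COL4A1 had 1677 to 2038 CPM in SOX17-positive against 1143 to 1389 CPM in SOX17-negative libraries (log2 fold change 0.58, adjusted p = 0.0784, and 0.0447 with the run as a block), and HSPG2, perlecan, a log2 fold change of 0.94 (0.101). Of 11 HOXA genes none was called, with 10 values below 0 and a median of -0.23. With the run as a block 1 passed as higher and 1 as lower, where 0.805% and 0.831% of all genes did. No BMP, Wnt, endothelial ETS, cell cycle, immediate early or cholesterol synthesis gene of the lists was called. The 15 cell cycle genes summed to 542 to 1010 CPM in SOX17-positive and 720 to 1165 CPM in SOX17-negative libraries, with SOX17-positive library 3 the lowest. All 8 cholesterol synthesis genes had values below 0, with a median of -0.24. None of the 5 erythroid and platelet genes tested (median -0.55) and none of 5 cell cycle inhibitors (median -0.20) was called.

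The 14 endoderm and epithelium genes summed to 104 to 131 CPM in KO SOX17-positive and 154 to 164 CPM in KO SOX17-negative libraries, mostly from the keratins KRT8 and KRT18. Of the 7 tested none was called, and 6 had every SOX17-positive library below, as did 6.87% of all genes. The 9 pluripotency genes summed to 388 to 427 CPM in SOX17-positive and 500 to 546 CPM in SOX17-negative libraries. LIN28A and DPPA4 made up nearly all of it, while NANOG, SOX2 and POU5F1 were at 0.298 CPM or less in SOX17-positive and 0.331 CPM or less in SOX17-negative libraries. L1TD1, an RNA-binding protein of pluripotent cells, had 9.97 to 14.9 CPM in SOX17-positive and 3.65 to 6.36 CPM in SOX17-negative libraries, and passed as higher with the run as a block only (log2 fold change 1.43, adjusted p = 0.0276). The part of these markers in the results was not tested.

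Set beside the WT libraries of day 7, which share none with the KO comparison, the KO difference had the same direction in every called gene. In WT 367 genes were called (1.60%), 213 higher (0.927%) and 154 lower (0.670%), from 4 against 4 libraries. Without WT SOX17-positive library 1 or 4 the WT count was 219 and 166, and without WT SOX17-negative library 4 it was 235. Of the 80 genes called higher in KO 70 were also called higher in WT, which is 87.5% of the KO list and 32.9% of the WT list. Of the 74 called lower in KO 52 were called lower in WT, which is 70.3% of the KO list and 33.8% of the WT list. All 213 and 154 WT-called genes had the same sign in KO. The median log2 fold change of the KO-called genes was 1.38 in KO and 1.32 in WT for those higher, and -1.48 and -1.30 for those lower. That of the WT-called genes was 0.95 in KO and 1.204 in WT for those higher, and -1.19 and -1.39 for those lower. Each set had its larger median in the genotype in which it was chosen. Over the 154 KO-called genes the log2 fold changes in KO and WT had a correlation of 0.955, and over all 22978 genes of 0.542, given as a description across genes.

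**Figure D4:**
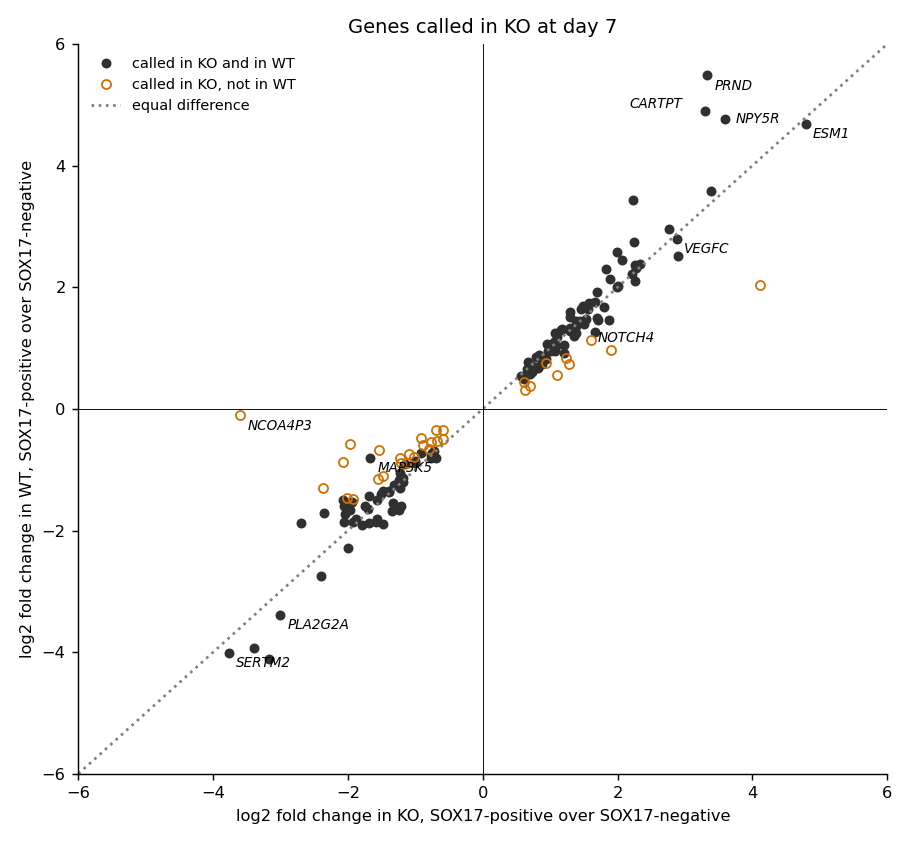
Log2 fold changes, SOX17-positive over SOX17-negative, of the 154 genes called in KO, with KO on the x axis and WT on the y axis; the dotted line marks equal values. All points lie in the quadrants of equal sign, with PRND, CARTPT and NPY5R above the line.

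The difference between genotypes of the SOX17 difference was tested directly, and edgeR called no gene. Of 22978 genes 240 had an unadjusted p under 0.05, fewer than the 1 in 20 that chance alone gives. The p-values of this test thus ran larger than those of chance, which limits what its lack of calls can show. DESeq2 and limma also called none, which does not show that the differences are equal in KO and WT. A gene called in KO and not in WT is therefore not shown to differ between them, as for PDGFRA (log2 fold change -1.55 in KO and -1.15 in WT, WT adjusted p = 0.0655). Among the genes named for a smaller or more negative difference in KO, PRND had the largest, a KO minus WT difference of -2.15 with an edgeR adjusted p of 1. PRND had 7.74 to 10.8 CPM in KO SOX17-positive and 0.727 to 1.09 CPM in KO SOX17-negative libraries, and 7.31 to 11.7 CPM in WT SOX17-positive and 0.128 to 0.243 CPM in WT SOX17-negative libraries. The WT SOX17-negative levels of PRND rest on few counts, as does its difference of -2.15. The SOX17-positive ranges overlapped between genotypes, while every KO SOX17-negative library was above every WT SOX17-negative one. CARTPT had the same order, 5.49 to 8.40 CPM in KO SOX17-negative and 1.36 to 2.80 CPM in WT SOX17-negative libraries, with a difference of -1.59. SOX17 itself had 52.5 to 71.1 CPM in KO SOX17-negative and 32.1 to 70.8 CPM in WT SOX17-negative libraries. The part of the gate in these SOX17-negative levels was not tested.

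The other 4 genes named for a smaller or more negative difference in KO were MAP3K5 (-0.86), VCAN (-0.84), EPHA7 (-0.62) and AP001793.1 (-0.50). VCAN, the proteoglycan versican, had 32.6 to 76.5 CPM in KO SOX17-positive and 78.8 to 140 CPM in KO SOX17-negative libraries, against 109 to 126 CPM in WT SOX17-positive and 83.1 to 150 CPM in WT SOX17-negative libraries, so the gates were apart in KO and overlapped in WT. The 5 named for a larger difference in KO were CCDC58 and LINC00926 (0.57 each), GLI4 (0.55), AC018521.4 (0.53) and DLEC1 (0.45). None of these passed after adjustment.

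The leading genes were also read in the other KO groups; the day 2 and day 4 groups follow the titles, which say KO where the genotype field does not. PRND averaged 0.147, 0 and 0.0732 CPM in unsorted KO cells of days 0, 2 and 4, 9.64 ± 1.36 CPM in SOX17-positive cells of day 7 (SD, n = 4) and 43.6 CPM in SOX17-positive cells of day 12. In SOX17-negative cells it averaged 0.956 CPM at day 7 and had 1.13 CPM in the single library of day 12. CARTPT was at or near 0 to day 4, at 70.0 CPM and 177 CPM in SOX17-positive cells of days 7 and 12, and at 7.17 CPM and 3.66 CPM in SOX17-negative cells. GJA5, which did not pass at day 7, had 195 CPM at day 7 and 469 CPM at day 12 in SOX17-positive cells and 59.2 CPM and 10.8 CPM in SOX17-negative cells. For CARTPT and GJA5 the day 12 SOX17-positive libraries were split, and libraries 2 and 3 lay within the day 7 range. CARTPT had 76.79 and 75.37 CPM in these and 290.7 and 265.7 CPM in libraries 1 and 4. GJA5 had 166.4 and 177.2 CPM in libraries 2 and 3 and 760.6 and 772.5 CPM in libraries 1 and 4.

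The following genes called lower in SOX17-positive cells at day 7, picked by hand, had higher means at an earlier day. How many of all genes called lower do so was not counted. HAND1 averaged 615 CPM at day 2 and 178 CPM at day 4, PLA2G2A 137 CPM at day 2 and 27.4 CPM at day 4, and LRRN1 431 CPM at day 0, against 9.20, 1.72 and 9.76 CPM in SOX17-positive and 21.81, 13.98 and 37.75 CPM in SOX17-negative cells of day 7. COL3A1 and HGF were highest at day 4, COL3A1 with 161 to 4512 CPM over 4 libraries and HGF with a mean of 81.6 CPM. The day 0, day 2 and day 4 groups were unsorted and the day 12 SOX17-negative group has 1 library, so these levels are a description without a test.

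**Figure D5:**
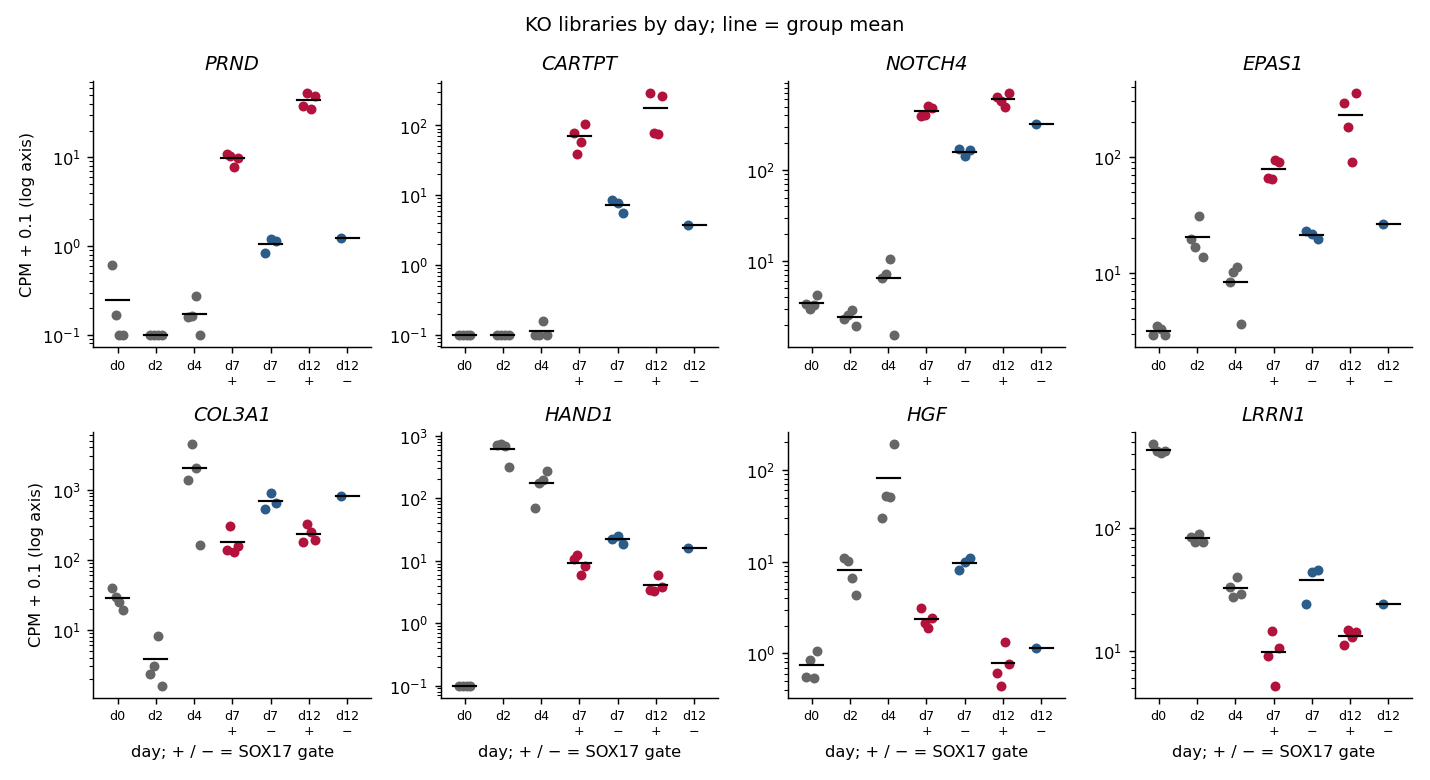
CPM plus 0.1 (log axes) of 8 genes in each KO library by day, with grey for unsorted, red for SOX17-positive and blue for SOX17-negative cells; lines are group means, and day 12 SOX17-negative is 1 library. PRND, CARTPT, NOTCH4 and EPAS1 are higher in SOX17-positive cells at days 7 and 12, while COL3A1, HAND1, HGF and LRRN1 have their highest values before day 7.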

How the data were processed

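The deposited table holds raw fragment counts per gene for 65 libraries of sorted and unsorted H9 cells (TruSeq libraries, per the labels). Tools listed in the processing notes of the submitters are cutadapt 1.18, R 3.2.2 and featureCounts, with GRCh38 as the build. Neither an aligner nor a strand setting is stated in the labels. Genes were named and placed by GENCODE 29. A second deposited table of the authors holds log2 of TMM-scaled RPKM plus 1, here called log2 RPKM, and was used for 1 alternative. The added 1 makes fold changes smaller for genes at low levels.

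Library totals over all groups were 10366048 to 19081031 counts. CPM are counts scaled to a library total of 1000000. The 28 sorted libraries in groups with replicates were fitted together (edgeR 4.0.16, R 4.3.3) with TMM factors, a filter on low counts (minimum count 10, minimum total 15) and 1 mean per group. These 28 came from day 7 and day 12 groups, some of them CD43-positive, and shared 1 estimate of the spread per gene. Quasi-likelihood F tests were adjusted by the Benjamini-Hochberg method over 22978 genes, with calls at an adjusted p under 0.05. Standard errors are the fold change divided by the root of F. Single values were compared by exact permutation over libraries. The code was tested on simulated data.

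Alternatives were median-of-ratios size factors, no filter, DESeq2 1.42.0, limma 3.58.1 on log2 RPKM, the compared groups alone, replicate number or library run as a block, and each library left out. Fits with the run as a block and a library left out were added after seeing the data. The runs come from consecutive library numbers in the titles. Deviations from the group means correlated at 0.217, 0.401 and 0.485 over 16119 genes in the 3 KO pairs of a shared run. The other KO pairs were at -0.335 to 0.112. In WT, pairs of a shared run were at 0.465, 0.0279, 0.213 and 0.305, and pairs of different runs at -0.427 to 0.251. KO libraries of a run were thus more alike than others, while in WT the values overlapped. The main fit does not use the run. Libraries of a KO gate differed from each other by 4.97 to 20.8 in chi-square per gene and those of a WT gate by 5.82 to 88.2, with the 3 values above 24.2 all in pairs with WT SOX17-negative library 4, and none was counted as a repeat.

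Named genes were the gate genes, RUNX1, the markers of the comparison, from each of 29 gene lists the members that passed and otherwise those of largest change, and outside the lists up to 15 protein-coding or named genes each way with at least 3 log2 CPM (8 CPM) in the higher group and no overlap between gates. For the difference between genotypes they were the 5 of smallest p each way. The members of the comparison and the lists were chosen with earlier results of these data known. Promoter windows are RefSeq's. The result of 1 gene of the lists is not reported here.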

Additional observations from a re-analysis of the deposited data

Results flagged for a closer look

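A KO SOX17-positive library far from the other 3 was looked for in 106 values. In 11 of them the gap to the nearest library was above Dixon's 95% critical value, where chance alone gives about 1 in 20. FOSB and CDKN1A were added to these values by hand and are named above because library 3 stood apart in them. That rate therefore does not cover these genes. Library 3 had the highest FOSB (75.18 CPM, others 20.88 to 24.09) and ITGA2 (16.45 CPM, others 9.019 to 10.01). It had the lowest CDKN1A (17.12 CPM, others 49.58 to 54.41) and GNAO1 (1.712 CPM, others 3.163 to 3.382). Library 4 had the highest SOX17 (237.3 CPM, others 176.8 to 187.1) and SOX18 (68.9 CPM, others 52.77 to 55.23). Library 2 had the highest EPHB2 (11.93 CPM, others 6.039 to 6.831), TNFRSF19 (15.07 CPM, others 7.765 to 8.712) and MIR3606 (5.103 CPM, others 2.084 to 2.319), and the lowest MYO1E (42.01 CPM, others 53.29 to 54.9). Library 1 had the highest CXCL3 (5.703 CPM, others 3.126 to 3.56). ITGA2, GNAO1, SOX17 and MYO1E stayed called without any single library.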

How the results depend on the processing

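The KO count of 154 called genes became 159 with median-of-ratios size factors, 446 with no filter, 333 with DESeq2, 234 with limma (92 higher, 142 lower, against 80 and 74), 612 with the compared groups alone, 311 with the replicate number as a block, 376 with the library run as a block, and 1801 with that block in the 7 KO libraries alone. With that block in the 7 KO libraries alone, 918 of 20184 genes were called higher and 883 lower. Of 6 Notch targets tested 5 were then called higher. Of 12 basement membrane genes 8 were then called higher and 1 lower, and of 11 venous and lymphatic genes 2 higher and 6 lower. In the main fit the count of called genes was 306 at an adjusted p under 0.1 and 51 under 0.01. Leaving out 1 library gave 46 to 160, and with the run block 163 to 277 (252 and 245 without SOX17-positive library 2 or 4); the cause was not tested. The WT count of 367 became 651 with no filter, 208 alone, 559 with the replicate block and 616 with the run block, and 166 to 407 without 1 library. The difference between genotypes called 0 genes in each fit that tested it, which the run block with a library left out and the 7 KO libraries alone did not. Same-numbered KO libraries correlated at 0.217, 0.401 and 0.0332 (the third pair is of different runs), so numbers were not taken as pairs.

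Of 94 named genes 48 were called. Under the alternatives 145 of 2066 values lost the call, 180 gained one, and none of the 48 changed sign. RUNX1 turned to 0.02735 with the run block in the 7 KO libraries alone, to 0.02788 without SOX17-positive library 3, and with the run block to 0.02071 without that library and to 0.007035 without SOX17-negative library 2. CD34 turned to -0.005369 in the last of these. Limma ended 5 calls (ESM1, VEGFC, SYNJ2, SLC1A4 and IGF1). Without 1 library RUNX1 lay between -0.1493 and 0.02788, the gates' difference in total count between -543000 and 774000, and that in mitochondrial share between -0.1288 and 0.1965 percentage points. The median of all genes lay between -0.0098 and 0 in all settings. Depth limits genes such as ESM1, with 8 counts in SOX17-negative libraries.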

Other observations

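Among the 154 genes called in KO, 13 pairs lay within 100 kb of each other on a chromosome, and both genes of each pair had the same direction. SOX17, AC091076.1 and RP1 pair with each other, as do ACSM3, ACSM1 and AC004381.2, so the pairs are not all separate places. Of the 13 pairs 6 overlap, so reads may be shared. Of the pairs apart from each other, SOX17 had AC091076.1 at 6.32 kb (log2 fold change 1.99) and RP1 at 48.53 kb (2.21), PRND had RASSF2 at 51.56 kb (0.85), CXCL5 had CXCL3 at 37.81 kb (-1.48) and BEX1 had NXF3 at 11.57 kb (-1.57, and -1.19 for BEX1). These pairs were chosen after their values were seen. How often all genes tested lie so close, or share a direction when they do, was not tested.

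EDNRB, an endothelin receptor, was called lower in KO SOX17-positive cells and was chosen after its values were seen. It had 1.00, 1.72, 0.223 and 1.32 CPM in SOX17-positive and 3.83, 6.73 and 6.30 CPM in SOX17-negative libraries (log2 fold change -2.35, standard error 0.44, edgeR adjusted p = 0.00678), with no overlap. Its call was lost without SOX17-negative library 2.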
